A study of Mus musculus with 2 samples.

Results

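Of 9449 cells read from Zbtb16 knockout cultures on day 6 of cardiomyocyte differentiation, 93 still carried Actc1, the gene of cardiac alpha-actin. They made up 0.984% of the knockout cells (95% interval 0.795 to 1.20), whereas 1118 of 6354 control cells met the same rule, 17.6% (16.7 to 18.6). A cell was kept with at least 15000 UMIs, at least 500 genes and at most 10% of UMIs from mitochondrially encoded genes, and it counted as an Actc1 cell with at least 3 Actc1 UMIs. UMIs are tags that let each captured RNA molecule be counted once. The Actc1 counts chose the cells and are given as a description. The knockout Actc1 cells are set against the other 9356 knockout cells and against the 1118 control Actc1 cells, out of 15803 cells in both libraries.

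The study used mouse D3 embryonic stem cells, taken through cardiomyocyte differentiation and read by droplet single-cell RNA sequencing. The knockout group carried a Zbtb16 knockout and the control group was WT, and both had the same line, treatment and day. Zbtb16 encodes a zinc finger transcription factor, and the design asks which subpopulation depends on it at the progenitor stage. Each group was 1 library, so the differences below come without a check between replicates and without a test. Zbtb16 stood at 0.810 CPM in the knockout Actc1 cells and 0.997 CPM in the other knockout cells, against 22.5 and 22.2 CPM in control cells with and without Actc1, where CPM is a count scaled to one common total over the summed cells of a group. The deleted part of Zbtb16 and the number of knockout clones are not given in the sources used here. All intervals are exact 95% intervals that cover counting error only.

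Vertebrates have several actin genes whose proteins are nearly identical. Actc1 encodes the main actin of heart muscle fibres, Acta1 that of skeletal muscle and Acta2 that of smooth muscle, but the early embryonic heart also uses Acta2 and the smooth muscle gene Tagln for a time. Cardiac muscle cells build sarcomeres from myosins, troponins and titin, while smooth muscle cells contract without sarcomeres and rely on calponin, transgelin and their own myosin. Both kinds of muscle use the transcription factor SRF, which binds a short DNA motif called the CArG box, often with the coactivator myocardin (Myocd).

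The promoters of a cardiac actin, a smooth muscle actin and an atrial myosin gene are shown because these genes carried the contrast described below. They are RefSeq sequences on GRCm38.p6, from 250 bases before to 50 bases after the gene's start, all on the minus strand and written 5′ to 3′. Capitals mark CArG boxes, strict or with a C or G in place of 1 of the middle A or T bases, searched on both strands. The Actc1 window is chr2:114052826-114053125, the Acta2 window chr19:34255324-34255623 and the Myl7 window chr11:5898733-5899032.
Actc1: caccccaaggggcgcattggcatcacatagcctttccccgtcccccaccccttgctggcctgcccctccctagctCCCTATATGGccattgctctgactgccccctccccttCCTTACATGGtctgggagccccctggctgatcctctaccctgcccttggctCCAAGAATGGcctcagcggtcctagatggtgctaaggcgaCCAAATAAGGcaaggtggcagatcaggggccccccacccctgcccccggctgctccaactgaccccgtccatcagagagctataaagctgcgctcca
Acta2: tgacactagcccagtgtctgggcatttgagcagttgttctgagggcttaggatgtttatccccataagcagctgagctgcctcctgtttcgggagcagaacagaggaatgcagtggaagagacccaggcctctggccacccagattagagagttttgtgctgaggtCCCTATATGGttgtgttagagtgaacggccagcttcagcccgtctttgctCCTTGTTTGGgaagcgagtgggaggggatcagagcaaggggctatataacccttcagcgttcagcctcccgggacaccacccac
Myl7: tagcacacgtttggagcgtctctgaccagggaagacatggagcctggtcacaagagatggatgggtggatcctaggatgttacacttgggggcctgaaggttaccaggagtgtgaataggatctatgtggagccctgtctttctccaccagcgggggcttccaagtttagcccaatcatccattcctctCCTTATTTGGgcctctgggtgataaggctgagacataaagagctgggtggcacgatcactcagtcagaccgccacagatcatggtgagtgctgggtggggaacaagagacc
The Actc1 window holds 1 strict and 3 relaxed boxes, beginning 175, 138, 87 and 47 bases before the start. The Acta2 window holds 2 relaxed boxes, 84 and 34 bases before the start, and the Myl7 window 1 strict box, 61 bases before the start. Among other muscle genes looked up, Myl9 and Acta1 held a strict box and Ttn a relaxed one, and none was found for Cnn1, Tpm1, Myh7, Myl4, Tnnt2, Tnnc1, Rbm24 or Smyd1. Of 32851 promoter windows, 1.63% held a strict box and 9.98% a strict or relaxed one. A match describes the letters and is not evidence of binding.

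The knockout Actc1 cells had a median of 10 Actc1 UMIs, with a range of 3 to 184, and 38 of them had at least 15. In control Actc1 cells the median was 18 and the highest value 1044, and 613 cells had at least 15. Among knockout cells 9202 had 0 Actc1 UMIs, 125 had 1, 29 had 2 and 13 had 3, so the count fell off smoothly across the limit. In the 13 cells just inside the limit Acta2 stood at 1459 CPM, Tagln at 871 and Myh7 at 16.1. In the 29 cells just outside it, the same genes stood at 1582, 715 and 7.41 CPM. The lowest members thus resemble their nearest excluded neighbours in these genes.

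Depth, free RNA and other cell types bear on a group this small. The knockout Actc1 cells had a median of 42737 UMIs, against 30468.5 in other knockout cells and 34905.5 in control Actc1 cells, and 10 of the 93 exceeded 100000 UMIs. With every cell thinned to 15000 UMIs, 61 knockout cells (0.646%, 0.494 to 0.829) and 836 control cells (13.2%, 12.3 to 14.01) still met the rule. Droplets with 10 to 100 UMIs, which hold free RNA, had Actc1 at 7.46 CPM in the knockout library and 229 CPM in the control library. Cells with at least 10 UMIs of endothelial markers, a type that should lack Actc1, met the rule in 2 of 415 knockout cases (0.482%, 0.0584 to 1.73), at a median depth of 40722 UMIs, and in 12 of 283 control cases (4.24%, 2.21 to 7.29), at 53352 UMIs. The 2 libraries shared 16 cell barcodes, and none of the 93 was a control cell. Of the 93, 2 had at least 10 UMIs of endothelial, 1 of endoderm and 1 of pluripotent markers, and 0 of the globin and other blood markers. No doublets were removed, and their part in the results was not tested.

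Reads of near-identical actin genes can be assigned to the wrong copy, so Actc1 was also read relative to Acta2. The knockout Actc1 cells had 13.3 Actc1 UMIs per 100 Acta2 UMIs, and control Actc1 cells had 61.3. Of all 185 knockout cells with at least 150 Acta2 UMIs, 47 met the Actc1 rule (25.4%, 19.3 to 32.3) and 131 had 0 Actc1 UMIs, a count that the rule did not set. Of 148 such control cells, 127 met it (85.8%, 79.1 to 91.0) and 9 had 0. This split was looked up after the values were seen, and the part of misassigned actin reads in the members' counts was not tested.

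Smooth muscle genes stood out first against the other knockout cells. Tagln, the actin-binding protein transgelin, stood at 2813 CPM (2767 to 2861) in knockout Actc1 cells and at 148 CPM (147 to 149) in other knockout cells, 19.0-fold higher. Cnn1, the actin-binding calponin of smooth muscle, stood at 107 against 3.33 CPM, 32.2-fold higher (29.0 to 35.7). Acta2 stood at 3393 against 926 CPM, 3.66-fold higher (3.61 to 3.72). The regulatory light chain Myl9 stood at 223 against 26.8 CPM, and Tpm1, a tropomyosin used by every muscle type, at 4213 against 950.1 CPM. Myh11, the heavy chain of mature smooth muscle, was low in both, at 11.9 against 0.402 CPM, and Lmod1, an actin nucleator of smooth muscle, stood at 26.7 against 1.03 CPM. Free RNA of the knockout library held Acta2 at 1062 CPM, above the level in other knockout cells, and Tagln at 147 CPM. Of the 93 cells, 10 lay under the free RNA level for Acta2 and 11 for Tagln.

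Counted as a list, 10 of 15 measured smooth muscle genes were higher by 1.5-fold or more in knockout Actc1 cells than in other knockout cells, and 1 was lower by as much. The lower one was Actg2, the actin of gut smooth muscle, at 5.27 against 10.4 CPM. Measured means at least 5 CPM in either group. In each list below, a gene that reached this in 1 group alone could only count as higher there or as under 1.5-fold. The median log2 ratio of CPM plus 1 was 1.01 (0.81 to 1.14). Among all 10194 genes at this level, 5.79% passed 1.5-fold upward and 6.5% downward, and the median was -0.02. Csrp1 and Cald1, actin-linked genes expressed well outside muscle, did not reach 1.5-fold, at 290.2 against 203 CPM and 932 against 698 CPM. Of 19 actins, tropomyosins and SRF partners, 12 were higher by that much and 1 lower, a median of 0.80. The general cytoplasmic actins Actb and Actg1 differed less, with log2 ratios of 0.24 and 0.36.

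Heart fibre genes were also far higher than in other knockout cells. Of 18 measured cardiac muscle fibre genes other than Actc1, 17 were higher by at least 1.5-fold and none was lower, and the median log2 ratio was 3.25 (3.02 to 3.40). Over all genes at 5 CPM, 5.79% were higher and 6.5% lower. Myh7, Myh6, Myl4, Myl3, Csrp3 and Smyd1 had under 5 CPM in other knockout cells, so they could only count as higher or as under 1.5-fold. Myl7, Ttn, Tnnt2, Tnnc1, Rbm24 and Tnni1 reached 5 CPM in both groups. Myh7, the slow beta-myosin heavy chain of the embryonic ventricle, had the largest ratio of all genes with at least 50 CPM apart from Actc1. It stood at 90.5 CPM (82.3 to 99.3) against 1.05 CPM (0.941 to 1.16), 86.5-fold higher. The atrial light chain Myl7 stood at 284 against 7.47 CPM, while the embryonic light chain Myl4 had 98.4 against 3.29 CPM. The giant spring protein titin, Ttn, stood at 196 against 7.92 CPM. The levels of Ttn and Myl4 rested on few cells: without the 10% of Actc1 cells highest in cardiac genes the log2 ratio was 1.94 for Ttn, against 4.46 with all, and 2.41 for Myl4, against 4.53 with all.

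The thin filament showed the same direction. Tnnt2, cardiac troponin T, which anchors the troponin complex to tropomyosin, stood at 184 CPM in knockout Actc1 cells and 18.9 CPM in other knockout cells. The calcium-binding troponin C gene Tnnc1 stood at 245 against 22.3 CPM. Tnni1, the slow troponin I of the embryonic heart, was the member that missed 1.5-fold, at 143 against 109 CPM. Rbm24, a muscle splicing factor, stood at 107 against 5.68 CPM and Smyd1, a methyltransferase needed for sarcomere assembly, at 80.2 against 4.92 CPM. Acta1 stood at 81.0 against 5.27 CPM, and 37.8% of its UMIs lay in 1 cell. The skeletal muscle factors Myod1, Myog and Myf5 had 0 UMIs in the 93 cells.

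All 7 measured genes of cardiac calcium handling and rhythm were at least 1.5-fold higher than in other knockout cells, with a median log2 ratio of 1.97. The share over all genes at 5 CPM was 5.79% higher and 6.5% lower. Ryr2, the calcium release channel, and Slc8a1, the sodium-calcium exchanger, both stood at 34.8 CPM, against 7.09 and 7.21 CPM. The natriuretic peptide gene Nppb stood at 13.2 against 1.25 CPM, and so was measured through the knockout Actc1 cells alone. The calcium pump Atp2a2, used in many tissues, passed the limit narrowly, at 175 against 115 CPM.

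**Figure D1:**
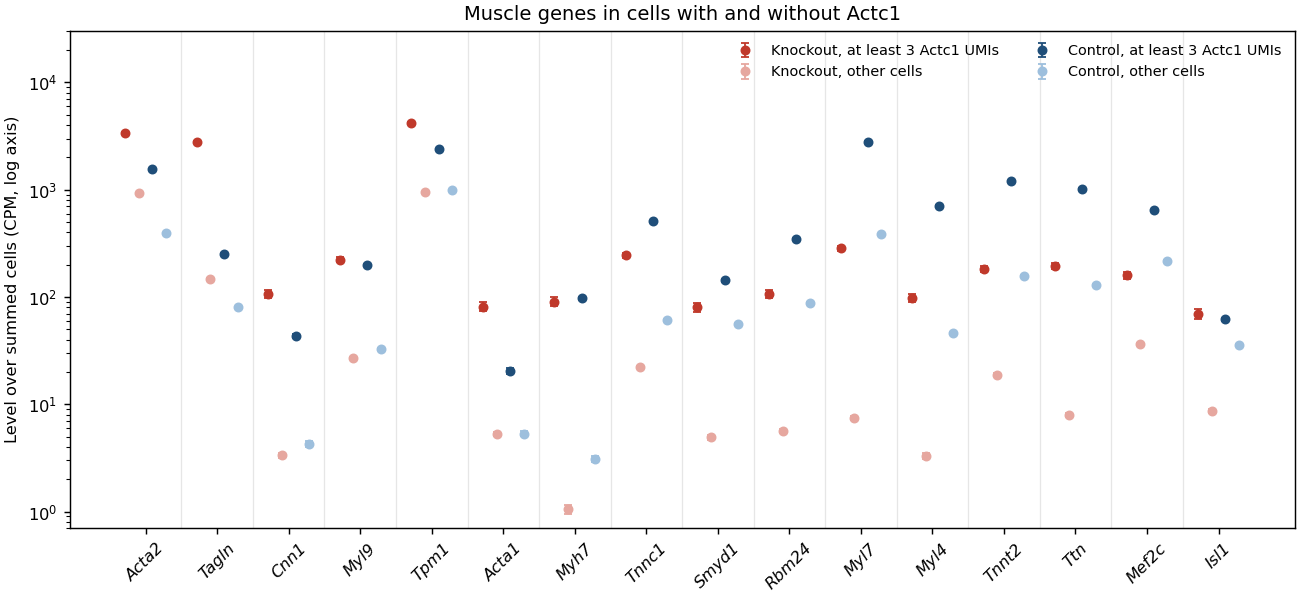
Levels of 16 muscle and heart genes, in CPM on a log axis, over the summed cells of 4 groups, with exact 95% Poisson bars. Knockout Actc1 cells lie above other knockout cells for each gene shown, and above control Actc1 cells for Tagln (2813 against 251 CPM) but below them for Myl7 (284 against 2812 CPM).

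Transcription factors of the heart did not move as 1 group. Of 16 measured, 6 were higher and 4 lower by at least 1.5-fold than in other knockout cells, and the median log2 ratio was 0.03. Over all genes at 5 CPM, 5.79% were higher and 6.5% lower. Myocd stood at 28.1 CPM (23.7 to 33.2) against 0.668 CPM, 42.1-fold higher. Isl1, which marks progenitors of the second heart field, stood at 68.9 against 8.62 CPM. Mef2c, a partner of many muscle promoters, stood at 159.6 against 36.4 CPM. Hand1, a factor of early lateral mesoderm and heart, went the other way, at 634 against 1255 CPM, and its relative Hand2 differed little, at 135 against 130.5 CPM. Gata6, which acts in heart and endoderm, stood at 129 against 191 CPM, just under 1.5-fold.

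Markers of other cell types were mostly lower in knockout Actc1 cells than in other knockout cells. All 11 measured endothelial genes, 4 of 6 endoderm genes, 6 of 7 pluripotency genes and all 4 blood genes were at least 1.5-fold lower. The remaining pluripotency gene was higher by as much. Genes that reached 5 CPM in the other knockout cells alone could only count as lower or as under 1.5-fold. The sum of blood markers, for example, stood at 3.44 CPM in knockout Actc1 cells and 128 CPM in the others. Among all genes with at least 5 CPM in either group, 6.5% were lower and 5.79% higher. Kdr, the main receptor for VEGF in vessels, stood at 17.0 against 62.8 CPM, while Ttr, a carrier protein of visceral endoderm, had 3.24 against 68.1 CPM. The embryonic globin Hba-x stood at 2.03 against 78.3 CPM. Of 15 mesenchymal and fibroblast genes, 8 were lower by that much and 1 higher, and the median was -0.60. Postn, a matricellular protein, stood at 39.5 against 162 CPM and the proteoglycan Lum at 25.1 against 90.0 CPM, while Twist1, a mesenchymal transcription factor, was the higher one, at 264 against 136 CPM. The ligand Tgfb2 stood at 461 against 209.9 CPM and its co-receptor Tgfbr3 at 23.3 against 72.0 CPM. Of 3705 genes with at least 50 CPM in either group, 168 (4.53%) were higher by 1.5-fold or more and 138 (3.72%) lower. The 12 genes with the lowest ratios were Hba-x, Ttr, Spink1, Ramp2, Postn, Kdr, Lum, Gas6, Nrk, Tgfbr3, Ndrg1 and Dppa5a. Control Actc1 cells differed from other control cells in a like way. There, 13 of 13 endothelial, 6 of 8 endoderm, 5 of 6 pluripotency and 8 of 15 mesenchymal genes were at least 1.5-fold lower. Among all 10183 genes at 5 CPM in that comparison, 320 were lower and 411 higher.

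The 93 cells were not alike. Acta2 and Tagln were spread widely. Acta2 per cell ran from 37.1 CPM to 12714 CPM with a median of 3143. Tagln ran from 0 to 7953 CPM with a median of 3017, and was at 0 in 2 cells. The smooth muscle genes Cnn1 and Myh11 were seen in fewer, 61 and 20 of 93 cells. Some cardiac transcripts were concentrated in few cells. Ttn was seen in 35 of 93 cells, and 1 cell held 36.8% of its UMIs and 10 cells 87.5%. Myl4 was seen in 29 cells, with 85.4% of UMIs in 10 of them, and Myh7 in 45 cells, with 68.9% in 10. Other cardiac transcripts were seen in more cells, Tnnc1 in 73, Tnnt2 in 58 and Myl7 in 57. Across the 93 cells the Spearman correlation with Actc1 CPM was 0.57 for Acta2, 0.48 for Tagln and -0.40 for Hand1. These only describe cells of 1 library, which were chosen by Actc1 itself and share free RNA, and Actc1 CPM had a correlation of -0.22 with depth.

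Sums of marker UMIs were also taken per cell. At least 10 UMIs over 10 cardiac genes were found in 41 of the 93 cells (44.1%, 33.8 to 54.8), in 183 of 9356 other knockout cells (1.96%, 1.69 to 2.26) and in 1104 of 1118 control Actc1 cells (98.7%, 97.9 to 99.3). Other control cells reached this limit in 2751 of 5236 cases (52.5%, 51.2 to 53.9), so it separates cells less sharply in the control library. Free RNA of that library held Myl7, part of the sum, at 721 CPM. At least 10 UMIs over 5 smooth muscle genes were found in 92 of the 93 (98.9%, 94.2 to 99.97), in 7227 of the other knockout cells (77.2%, 76.4 to 78.1) and in 966 of the control Actc1 cells (86.4%, 84.3 to 88.4). These shares depend on depth. Scaled for depth, the cardiac sum stood at 875 CPM in knockout Actc1 cells, 42.2 in other knockout cells and 5984 in control Actc1 cells, and the smooth muscle sum at 6331, 1088 and 1857 CPM. The smooth muscle sum exceeded the cardiac sum in 88 of 93 knockout Actc1 cells (94.6%, 87.9 to 98.2) and in 78 of 1118 control Actc1 cells (6.98%, 5.55 to 8.63). Other knockout cells also had the higher smooth muscle sum in total, 1088 against 42.2 CPM, though their share by cell was not counted. Acta2, part of that sum, stood at 1062 CPM in free RNA of the knockout library. The order of the sums was therefore not particular to the knockout Actc1 cells. Of the 38 knockout cells with at least 15 Actc1 UMIs, 15 had under 10 cardiac UMIs, against 3 of 613 control cells with as much Actc1.

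**Figure D2:**
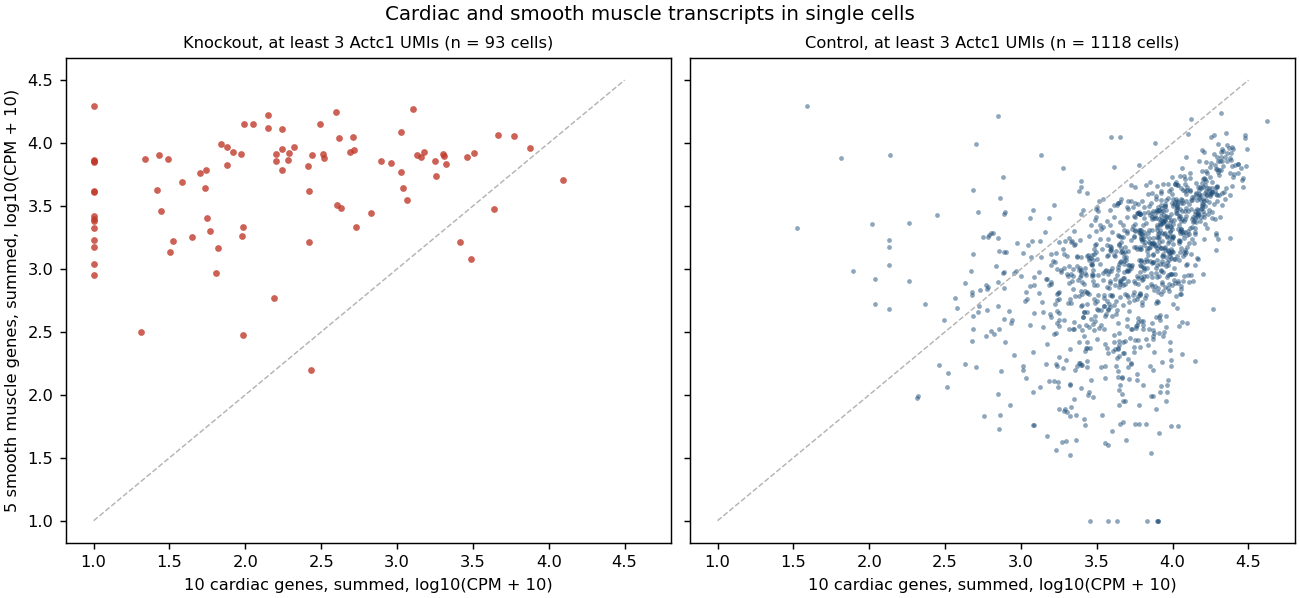
Each point is 1 cell with at least 3 Actc1 UMIs, placed by the summed level of 10 cardiac genes and of 5 smooth muscle genes, both as log10 of CPM plus 10, with a dashed line of equal sums. The knockout cells (left) lie above the line in 88 of 93 cases and spread along the whole cardiac axis, whereas the control cells (right) lie above it in 78 of 1118 cases. Other knockout cells, not shown, also had the higher smooth muscle sum in total (1088 against 42.2 CPM).

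Divided at 10 UMIs of each sum, 41 of the 93 cells reached both limits, 51 only the smooth muscle one, 1 neither and none only the cardiac one. The smooth muscle limit separates little, since 77.2% of other knockout cells reached it and knockout free RNA held Acta2 at 1062 CPM. It does not tell the identity of the 51. The cardiac division cuts a range and does not give a pair of cell types, since 10 of the 93 had 7 to 12 cardiac UMIs. The 41 were also deeper, with a median of 54779 UMIs against 35816 in the other 52. The summed genes differ by construction. Genes outside the sums also differed: Mef2c stood at 263 CPM in the 41 and 39.7 CPM in the 52, and Myocd at 51.3 against 1.31 CPM. The level of Acta2 was close, at 3509 against 3258 CPM, and so was that of Tagln, at 3025 against 2568 CPM. In the 52, Anxa1, an actin-linked and phospholipid-binding protein, stood at 118 CPM, against 5.66 CPM in the 41, but 1 cell held 40.7% of its UMIs in the 93. Set against the other knockout cells, the 52 had 11 of 15 smooth muscle genes higher by at least 1.5-fold and 2 lower, where 5.82% of all genes were higher and 7.7% lower. Of 12 measured heart fibre genes, 8 were higher in the 52 and 2 lower, so some fibre transcripts were also higher outside the 41. Tnnc1 stood at 97.0 against 22.3 CPM and Myl7 at 16.6 against 7.47 CPM. The lower ones were Ttn, at 3.93 against 7.92 CPM, and Tnni1, at 55.0 against 109 CPM. Tnnt2 differed little, at 16.6 against 18.9 CPM. The list shares genes with the sum that set the 52 apart.

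Control Actc1 cells, chosen by the same rule, gave the second comparison. Heart fibre genes were lower in the knockout Actc1 cells: of 23 measured, 21 were lower by at least 1.5-fold and none was higher, and the median log2 ratio was -2.16 (-2.36 to -1.79). Among all 10354 genes at 5 CPM or more, 11.7% were lower by that much and 16.2% higher, and the median was 0.02. The rest of the knockout library was lower too: in other knockout cells against other control cells, 15 of 16 measured fibre genes were lower and none higher, with a median of -2.98 (-3.03 to -2.93), where 5.8% of all genes were lower and 12.2% higher. The lower fibre level was therefore not particular to the Actc1 cells. The gap was smaller between Actc1 cells with at least 10 cardiac UMIs, 41 in the knockout and 1104 in the control. There, 18 of 23 fibre genes were lower and 1 higher, with a median of -1.45 (-1.66 to -1.25). Among all 10301 genes at this level, 1218 were lower and 1667 higher. The cardiac sum shares genes with the fibre list. Myl7 stood at 284 CPM in knockout Actc1 cells (269 to 299) and 2812 CPM in control Actc1 cells (2797 to 2826). Tnnt2 stood at 184 against 1205 CPM. Ttn had 196 against 1026 CPM, and for Myl4 the levels were 98.4 against 706 CPM. Free RNA differed in the same direction, with Myl7 at 8.18 CPM in the knockout library and 721 CPM in the control library, Tnnt2 at 21.2 and 337 CPM, and Ttn at 8.66 and 234 CPM. Its part in these differences was not tested. Tnni3, the adult cardiac troponin I, was nearly missing, with 1 UMI in the knockout Actc1 cells, 0.203 CPM, against 38.0 CPM. The myosin-binding protein Mybpc3 stood at 3.24 against 61.1 CPM and Csrp3, a protein of the sarcomere's Z-disc, at 12.4 against 137 CPM. Both were low but above other knockout cells, which had 0.148 CPM of Mybpc3 and 1.69 CPM of Csrp3.

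Myh7 and Cryab were the fibre genes that differed by less than 1.5-fold. Cryab, a small heat shock protein used well beyond the heart, had 142 CPM in knockout Actc1 cells and 119.6 CPM in control Actc1 cells. Myh7 stood at 90.5 CPM in knockout Actc1 cells (82.3 to 99.3) and 97.3 CPM in control Actc1 cells (94.6 to 99.99), a ratio of 0.931 (0.843 to 1.03). Free RNA held Myh7 at 2.89 CPM in the knockout library and 17.97 CPM in the control library. Reads of Myh7 and its close copy Myh6 may be hard to tell apart. The Myh7 ratio over all Actc1 cells moved between -0.53 and 0.17 on the log2 scale under the alternatives, so this pooled ratio has no set direction. It joins unlike cells. Myh7 stood at 158 CPM (143 to 174) in the 41 knockout Actc1 cells with at least 10 cardiac UMIs and at 12.7 CPM in the other 52. The 1104 control Actc1 cells with at least 10 cardiac UMIs stood lower than the 41, at 98.5 CPM (95.8 to 101). Myh7 is itself 1 of the 10 genes of the sum that chose these cells. That limit kept 41 of 93 knockout Actc1 cells but 1104 of 1118 control Actc1 cells. The levels in the chosen cells are thus set in part by the choice and only describe them.

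Calcium handling and heart factors were also lower than in control Actc1 cells. Of 9 measured calcium and rhythm genes 8 were lower by at least 1.5-fold and 1 higher, and Pln, which restrains the calcium pump, stood at 2.03 against 50.6 CPM. Of 17 cardiac transcription factors 14 were lower by as much, and the median was -1.89 (-2.10 to -1.71). For both lists the share over all genes at 5 CPM was 11.7% lower and 16.2% higher. Mef2c stood at 159.6 against 642 CPM, Gata6 at 129 against 543 CPM and Tbx5, a factor of the first heart field, at 6.48 against 60.9 CPM. Myocd stood at 28.1 against 84.9 CPM. Isl1 was at a like level, 68.9 against 61.8 CPM, and Hand1 was the 1 factor at least 1.5-fold higher, at 634 against 281 CPM. The other cells differed in the same way: 12 of 16 measured factors were lower in other knockout cells than in other control cells, with a median of -1.37, and Hand1 stood at 1255 against 725 CPM. Over all genes at 5 CPM there, 5.8% were lower and 12.2% higher.

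Smooth muscle genes were higher than in control Actc1 cells. Of 15 measured, 8 were higher by 1.5-fold or more and 1, again Actg2, lower, where 16.2% of all genes at 5 CPM were higher and 11.7% lower. The median log2 ratio of the list was 0.61 (0.51 to 0.71). This median lies close to 1.5-fold, which is 0.58 on this scale, and it was 0.47 with equal weight for each cell. Tagln stood at 2813 against 251 CPM, 11.2-fold higher (10.9 to 11.5), Acta2 at 3393 against 1549.8 CPM, 2.19-fold higher (2.15 to 2.23), and Cnn1 at 107 against 43.3 CPM, 2.48-fold higher (2.25 to 2.72). Acta2 differed as much in cells without Actc1, at 926 CPM in other knockout cells against 391 CPM in other control cells, 2.37-fold higher (2.35 to 2.38). Tagln differed less there, at 148 against 80.2 CPM, 1.85-fold higher (1.82 to 1.88), and Cnn1 stood at 3.33 against 4.24 CPM. Of 12 measured smooth muscle genes, 5 were higher and 1 lower in those other cells, with a median of 0.12. Over all genes at 5 CPM there, 12.2% were higher and 5.8% lower. Myl9 differed little between the Actc1 cells, at 223 against 199 CPM, and so did Lmod1, at 26.7 against 25.2 CPM. With cells thinned to 15000 UMIs, Tagln was seen in 95.7% of knockout Actc1 cells (89.4 to 98.8), 54.2% of other knockout cells (53.2 to 55.2) and 49.0% of control Actc1 cells (46.0 to 52.0), and unthinned in 97.8%, 68.6% and 63.5%. In endothelial-marker cells of the knockout library, which should lack it, the thinned share was 9.40%.

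**Figure D3:**
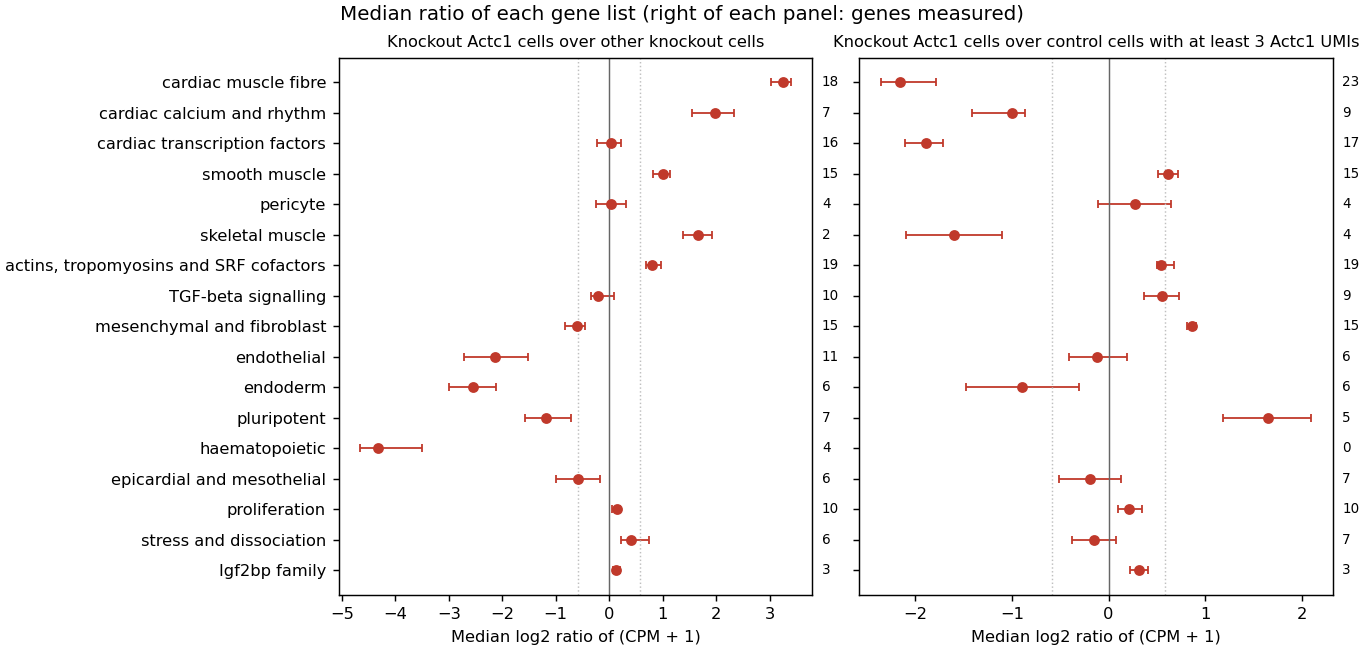
Median log2 ratio of CPM plus 1 for 17 gene lists, knockout Actc1 cells over other knockout cells (left) and over control Actc1 cells (right), with bars for counting error, dotted lines at 1.5-fold and the number of measured genes at the right of each panel. The cardiac muscle fibre list has a median of 3.25 on the left and -2.16 on the right, and the smooth muscle list 1.01 and 0.61.

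The contrast held at matched Actc1. Knockout and control cells were compared in bins of 3 to 4, 5 to 14 and 15 or more Actc1 UMIs, with 23, 32 and 38 knockout cells and 186, 319 and 613 control cells. Acta2 stood at 2129, 2623 and 4541 CPM in the 3 knockout bins and at 672, 871 and 2211 CPM in the control bins. The lowest control bin was near the free RNA of its library, which held Acta2 at 661 and Tagln at 73.9 CPM, against 1062 and 147 CPM in the knockout library. Tagln stood at 1352, 1939 and 4129.7 CPM in knockout cells and at 121, 139 and 356 CPM in control cells, so the lowest knockout bin lay above the highest control bin. Myl7 stood at 58.4, 251 and 410.5 CPM in knockout cells and at 1361, 1989 and 3747 CPM in control cells, the opposite order. Myh7 was higher in the higher bins of both, at 20.8, 50.4 and 152 CPM in knockout cells and 24.0, 43.3 and 151 CPM in control cells, with overlapping intervals in each bin. With at least 15 Actc1 UMIs, 21 of 23 heart fibre genes were lower in the knockout cells by at least 1.5-fold and 8 of 15 smooth muscle genes higher, where 13.2% of all genes were lower and 19.5% higher. Actc1 itself stood at 843 against 1659 CPM in that open-ended bin.

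**Figure D4:**
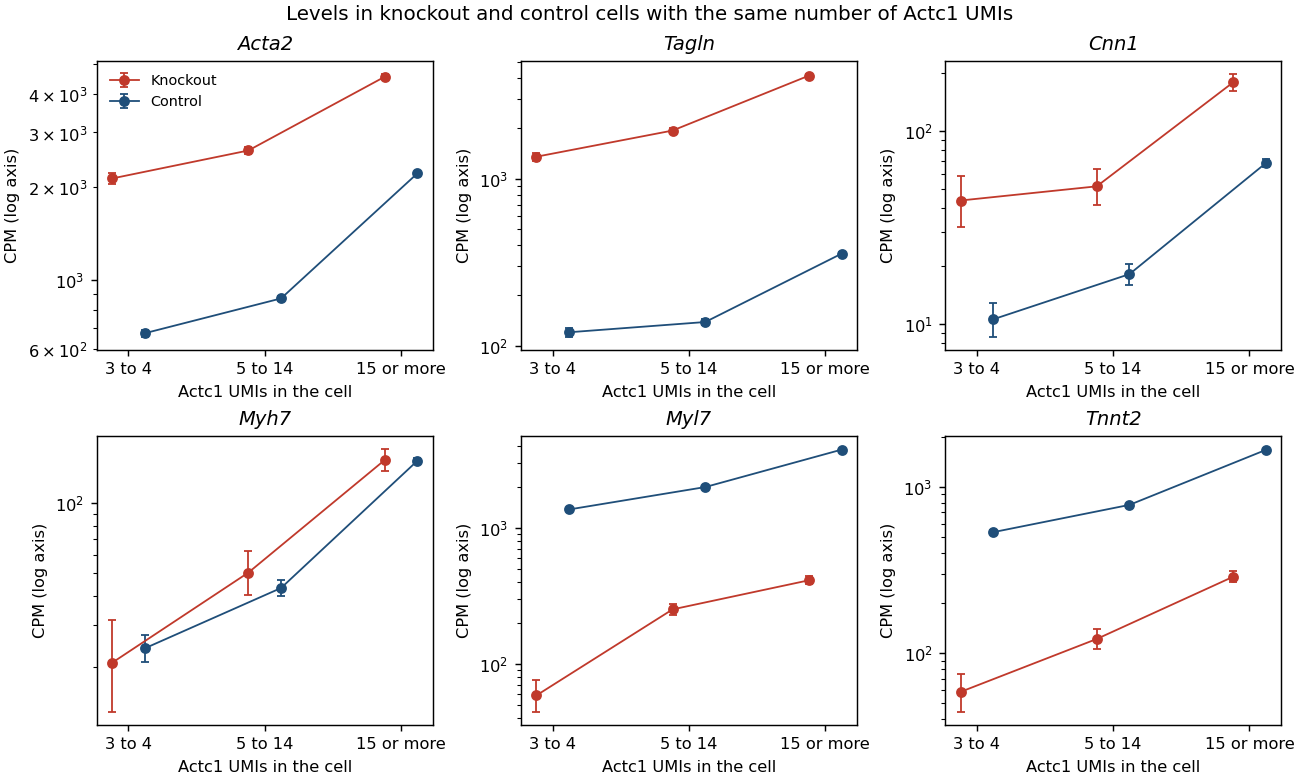
CPM on log axes for 6 genes in knockout and control cells in 3 bins of Actc1 UMIs per cell, with exact 95% Poisson bars. Knockout cells lie above control cells for Acta2, Tagln and Cnn1 and below them for Myl7 and Tnnt2 in each bin, while the Myh7 bars overlap, as at 15 or more UMIs (152 against 151 CPM).

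The reverse question, how often a Tagln-rich cell held Actc1, was asked after these values were seen. Of 104 knockout cells with at least 100 Tagln UMIs, 46 met the Actc1 rule (44.2%, 34.5 to 54.3) and 49 had 0 Actc1 UMIs. Of 34 such control cells, 24 met it (70.6%, 52.5 to 84.9) and 3 had 0, at a median depth of 94746 UMIs against 53952.5 in the knockout cells. Tagln-rich knockout cells were thus found both with and without Actc1.

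Zbtb16, the targeted gene, was not higher in the knockout cells that kept Actc1. They held 4 Zbtb16 UMIs in 3 cells, 0.810 CPM (0.221 to 2.07), and the other knockout cells held 337 UMIs in 272 cells, 0.997 CPM (0.893 to 1.11). The ratio was 0.813 (0.220 to 2.10), so a difference of up to about that upper bound was not detectable with 4 UMIs. All 4 UMIs lay in the 41 cells with at least 10 cardiac UMIs, at 1.51 CPM (0.412 to 3.87). The other 52 cells had 0, which the exact interval puts at no more than 1.61 CPM. Control Actc1 cells stood at 22.5 CPM (21.3 to 23.9), close to the other control cells at 22.2 CPM. Free RNA of the knockout library held Zbtb16 at 1.44 CPM (0.530 to 3.14, 6 UMIs), so the level in the 93 cells is not above that background. A count of a transcript outside the deleted part would not show the deletion.

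The RNA-binding proteins of the Igf2bp family, one of which the study's title names, differed by less than 1.5-fold between Actc1 cells and other cells of the knockout. Igf2bp3 stood at 226 CPM in knockout Actc1 cells, 212 CPM in other knockout cells and 182 CPM in control Actc1 cells. Igf2bp1 stood at 348, 317 and 179.6 CPM in the same groups, and Igf2bp2 at 166, 139.8 and 139 CPM. Only Igf2bp1 against control Actc1 cells passed 1.5-fold, at 1.94-fold.

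Beyond muscle, the largest ratios against control Actc1 cells also held genes that separate the libraries at large. Of 3766 genes with at least 50 CPM in either group, 688 (18.3%) were higher by 1.5-fold or more and 281 (7.46%) lower. The 12 highest were Anxa1, Tagln, Wnt4, Ahnak, Lrp2, Krt19, Thbs1, Crim1, Lifr, Igfbp2, Ccn2 and Slc2a3. Ahnak, a giant scaffold protein, stood at 1088 CPM in knockout Actc1 cells, against 105 CPM in control Actc1 cells, but at 1124 CPM in other knockout cells. Among the lowest were Sfrp5, Pln, Mest, Mybpc3, Igfbp5, Csrp3, Myl7, Arhgap31, Hsd3b6, Myl3 and Hspb7. Sfrp5, which blocks Wnt signals and marks early heart progenitors, had 10.7 against 243 CPM, with 1.03 CPM in other knockout cells. Of 15 mesenchymal genes 9 were higher by that much and 3 lower, where 16.2% of all genes at 5 CPM were higher and 11.7% lower. Col1a1, a fibrillar collagen, stood at 91.1 against 20.5 CPM. Of 5 measured pluripotency genes 4 were higher and 1 lower, but 1 cell held 161 of the 188 UMIs of pluripotent markers in the 93 cells.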

How the data were processed

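Droplet libraries were made with the MGI DNBelab C Series kit, per the labels' protocols. The authors deposited raw UMI counts per gene and barcode as unfiltered matrices, written by Cell Ranger 4, per the file headers. The genome builds GRCm39 and mm39 and the tools Cell Ranger and R 4.1.1 are listed in the submitters' processing notes. The sources used here do not say how DNBelab barcodes were converted for Cell Ranger. The libraries held 357324373 (knockout) and 308465930 (control) UMIs, and 0 columns were left unused.

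Deposited counts were summed over the cells of each group and scaled to CPM (python 3.11.15, numpy 2.4.6, scipy 1.17.1, pandas 2.3.3, figures with matplotlib 3.10.9). Log2 ratios used CPM plus 1, and a gene was called at 1.5-fold with at least 50 CPM in either group, or 5 CPM within lists. Sums have exact Poisson intervals, shares Clopper-Pearson intervals and ratios exact conditional intervals, and a list's interval is the median of its genes' bounds. UMIs of 1 library are not independent cultures. The code was checked on simulated counts. Named genes were the 12 largest ratios in each direction without Actc1, predicted, ribosomal protein or mitochondrially encoded genes, up to 4 genes of each list by level and 2 by ratio, and Actc1, Acta2, Myh7, Zbtb16 and the Igf2bp genes. Actg2, Lmod1, Myod1, Myog and Myf5 were named after their values were seen, as were the genes whose promoters are shown, and 1 gene the rule names is not reported here. The cells, lists and rules were chosen with earlier results of these data known. The promoter table's GRCm38.p6 differs from the build in the notes, its coordinates were joined to no count, and 14 of 15 genes looked up had a window. Alternatives covered the UMI, mitochondrial and Actc1 limits, thinning, deep cells, equal weight per cell, TMM scaling (edgeR 4.0.16 in R 4.3.3), the prior and the filter. The 2 others, which left out cells with other markers or the most cardiac transcripts, were chosen after seeing the data.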

Additional observations from a re-analysis of the deposited data

Results flagged for a closer look

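Of 3133 genes with at least 50 CPM in Actc1 cells or in other cells of both libraries, 40 were higher and 31 lower by at least 1.5-fold in Actc1 cells than in other cells of the same library, in both libraries alike. Another 2 were higher in the knockout and lower in the control, and 3 the reverse. Among genes the naming rule covers, 2 moved in opposite directions, and these differences were not tested.

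Ccnd1, which encodes cyclin D1 of the early cell cycle, stood at 179 CPM in knockout Actc1 cells and 63.3 CPM in other knockout cells, but at 38.9 CPM in control Actc1 cells and 62.7 CPM in other control cells. The log2 ratios were 1.49 and -0.68, a difference of 2.17.

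Igfbp5, a secreted binding protein of insulin-like growth factors, stood at 31.4 CPM in knockout Actc1 cells and 52.2 CPM in other knockout cells, but at 355 CPM in control Actc1 cells and 126 CPM in other control cells. The log2 ratios were -0.72 and 1.49, a difference of -2.20.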

How the results depend on the processing

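Under the 9 planned and 2 added alternatives the heart fibre and smooth muscle medians kept their direction, and so did the called values of 11 named genes, the only genes recomputed. The alternatives left 61 to 89 knockout Actc1 cells where they changed the cells. The share of knockout cells with Actc1 was 1.39% with at least 30000 UMIs, 1.55% with at most 5% mitochondrial UMIs and 0.646% when thinned. The heart fibre median over other knockout cells was 2.84 with at most 5% mitochondrial UMIs, 3.42 when thinned, 3.46 with at least 5 Actc1 UMIs, 2.40 with a prior of 5, 2.68 with no filter and 2.23 without the 10% of cells highest in cardiac genes. Over control Actc1 cells it was -2.72 without the 6% deepest cells, -2.68 with equal weight per cell, -1.65 with a prior of 5 and -2.55 without the 10% highest in cardiac genes. The smooth muscle median over other knockout cells was 1.16 with at least 30000 UMIs. Over control Actc1 cells it was 0.47 with equal weight per cell, and it was also under 1.5-fold with TMM scaling and without the deepest cells, at 0.56 in both, and with no filter, at 0.58. The Zbtb16 log2 ratio was -0.94 without the deepest cells, where 0 Zbtb16 UMIs were left and the value is set by the prior. With no filter on low values 2221 genes passed 1.5-fold over other knockout cells (931 higher, 1290 lower) and 4305 over control Actc1 cells (2161 higher, 2144 lower). With TMM scaling the split over control Actc1 cells was 604 higher and 339 lower. Of 242 values for 11 named genes, 132 moved beyond their counting interval. The Ttn log2 ratio ran from 1.94 to 5.09 over other knockout cells and from -4.68 to -2.07 over control Actc1 cells, and that of Myl4 from 2.41 to 5.19 and from -4.63 to -2.53. The causes were not tested. No paired analysis was possible because there was a single library for the knockout and a single one for the control. With 93 cells, genes under about 5 CPM rest on few UMIs.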

Other observations

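Some genes outside the muscle lists were higher in knockout Actc1 cells than in both other groups. Krt19, an epithelial and mesothelial keratin, stood at 205 CPM in knockout Actc1 cells, 54.1 CPM in other knockout cells and 26.4 CPM in control Actc1 cells, and was seen in 70 of the 93 cells. Among 6 measured epicardial and mesothelial genes it was the 1 that was at least 1.5-fold higher than in other knockout cells, and 3 were lower. Over all genes at 5 CPM, 5.79% were higher and 6.5% lower. The ligand Wnt4 stood at 83.8, 18.4 and 6.73 CPM in the same order of groups, the matrix protein Thbs1 at 53.7, 9.01 and 7.81 CPM, and the stress-response factor Atf3 at 37.5, 4.49 and 7.25 CPM. Mki67, a marker of dividing cells, was not among these genes, at 268, 306 and 125 CPM, since it was highest in other knockout cells.

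Mest, an imprinted gene of mesoderm, was unevenly spread over the 93 cells. It was seen in 15 of them, and 10 cells held 98.7% of its UMIs. It stood at 3.78 CPM in the 41 cells with at least 10 cardiac UMIs and 159 CPM in the other 52, against 1169 CPM in control Actc1 cells. Other knockout cells stood at 96.3 CPM and other control cells at 1717 CPM. The lower level in the knockout library was therefore not particular to the Actc1 cells.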
